A study of Mus musculus with 9 samples.

Results

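The replication-dependent histone genes encode the bulk of the proteins around which DNA is wound. They were followed here in embryonic mouse cerebral cortex with a heterozygous or homozygous knockout of Sfpq, and in controls. Sfpq encodes an RNA-binding protein, whose level was not measured. Members were taken by gene name: every RefSeq transcript whose older symbol begins with Hist1h, Hist2h, Hist3h or Hist4h, or whose current symbol is H1f1 to H1f6 or begins with H2ac, H2bc, H3c or H4c and a number. The rule gave 68 transcripts of 30978, which belong to 67 genes of 23201: 6 linker histone H1 genes, 18 H2A, 18 H2B, 12 H3 and 13 H4 genes. Some members carry current symbols of another form, H2aw for Hist3h2a, H2bu2 for Hist3h2ba and H4f16 for Hist4h4, and H4bc24 is the H2B gene formerly named Hist1h2br.

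RNA was read from cortex at stage E13.5, with 3 control libraries, 3 from Sfpq+/- (heterozygous) embryos and 3 from Sfpq-/- (homozygous) embryos. All were labelled with the mixed strain C57BL/6+C57BL/6J+CBA, and the labels describe the cells as neuronal stem cells and neurons together. The sources used here do not give the allele, any Cre driver, the genotype of the controls or the number of embryos behind a library, so the spread between libraries may be partly technical. Ribosomal RNA was depleted and RNA with and without a poly(A) tail was kept, and the authors deposited RPKM, in which reads are divided by transcript length in kilobases and by the library's reads in units of 1000000. In these bulk samples, fewer dividing cells and less histone RNA per dividing cell cannot be told apart.

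As background, histone mRNAs of this class are made in S phase, when new DNA has to be packed. Their genes lie in clusters and mostly lack introns, and their mRNAs normally end not in a poly(A) tail but in a short stem-loop that the stem-loop binding protein, Slbp, recognises. The U7 small nuclear ribonucleoprotein and a cleavage complex cut the transcript just after that stem-loop. A library of poly(A)-selected RNA would miss most of these mRNAs, and in the cortex their level follows the dividing radial glia and intermediate progenitors rather than neurons, which have left the cycle.

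The stem-loop was looked for because it is the feature that sets this class of mRNA apart. The motif GGCNCTTTTNAGNGCC was searched on the sense strand of the annotated 3′ untranslated region (GENCODE M21 transcripts, GRCm38). It was found in 41 of the 67 members, and 51 of the 67 have an annotated 3′ untranslated region of at least 40 bases. Its first base lay 21 to 58 bases after the stop codon. Of these, 32 in H1, H2A, H2B and H3 genes held GGCTCTTTTNAGAGCC, and 9, all in H4 genes, held GGCCCTTTTNAGGGCC. The examples are abundant members of each type and the pair from the small chromosome 11 cluster, neither of which was called in the comparisons below. Capitals mark the motif.
H1f3: aaacGGCTCTTTTCAGAGCCaccc
H2ac18: aaaaGGCTCTTTTCAGAGCCaccc
H2ac20: aaaaGGCTCTTTTTAGAGCCacca
H2bc3: caaaGGCTCTTTTAAGAGCCaccc
H3c3: aaaaGGCTCTTTTAAGAGCCacct
H4c17: taaaGGCCCTTTTCAGGGCCatc
H4c4: caaaGGCCCTTTTCAGGGCCacta
H2aw: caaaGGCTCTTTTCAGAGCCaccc
H2bu2: caaaGGCTCTTTTCAGAGCCacct
The search fixed all but 3 letters, and there the members differed in 1 pair of the stem, which separates the H4 genes from the others, and in the last letter of the loop.

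Promoter windows of 300 bases, 250 before to 50 after the start site, were available for 62 member genes (63 windows, RefSeq, GRCm38.p6). The TATAAA motif was present on either strand in 55.6% of the member windows and in 13.6% of 32851 windows of all genes. CCAAT was present in 85.7% against 37.4%, and it was in every H1, H2A, H2B and H3 window but in 3 of 12 H4 windows. The octamer ATTTGCAT, a binding motif of POU-domain factors such as the one encoded by Pou2f1, was present in 22.2% against 1.74%, in 7 of 18 H2A and 7 of 17 H2B windows and in none of the H1, H3 or H4 windows. A match of 1 motif can overlap a match of another only at its ends, and a match is a description of the window only. Windows of H2A and H2B genes with nearby starts in opposite directions overlap, so 1 site can be counted for both genes. The octamer of H2ac12 and H2bc12 is such a site. These shares are therefore of windows, not of separate sites. The 5 windows shown are those of abundant members of H1, H2B, H3 and H4 and of H2aw, which was not called below, with the TATAAA motif, the CCAAT motif and the octamer in capitals on either strand.
H1f1, chr13:23763418-23763717, plus strand: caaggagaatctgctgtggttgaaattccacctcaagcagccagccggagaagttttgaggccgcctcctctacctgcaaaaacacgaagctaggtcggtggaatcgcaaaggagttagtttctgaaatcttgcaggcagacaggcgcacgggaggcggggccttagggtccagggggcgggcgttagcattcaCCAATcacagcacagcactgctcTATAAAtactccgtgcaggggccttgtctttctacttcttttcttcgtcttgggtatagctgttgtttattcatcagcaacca
H2bc12, chr13:22035571-22035870, plus strand: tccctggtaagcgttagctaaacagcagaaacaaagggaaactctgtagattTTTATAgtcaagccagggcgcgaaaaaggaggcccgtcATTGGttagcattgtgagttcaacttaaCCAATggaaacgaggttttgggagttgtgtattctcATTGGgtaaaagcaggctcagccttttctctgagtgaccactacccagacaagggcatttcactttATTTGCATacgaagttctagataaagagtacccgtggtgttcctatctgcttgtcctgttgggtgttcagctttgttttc
H3c3, chr13:23745472-23745771, minus strand: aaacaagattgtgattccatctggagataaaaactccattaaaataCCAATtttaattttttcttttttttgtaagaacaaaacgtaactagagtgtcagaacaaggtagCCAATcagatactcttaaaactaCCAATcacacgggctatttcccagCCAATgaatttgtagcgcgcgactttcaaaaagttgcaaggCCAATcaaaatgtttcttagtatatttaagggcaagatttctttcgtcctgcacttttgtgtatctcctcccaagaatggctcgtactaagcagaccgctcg
H4c17, chr13:21811496-21811795, plus strand: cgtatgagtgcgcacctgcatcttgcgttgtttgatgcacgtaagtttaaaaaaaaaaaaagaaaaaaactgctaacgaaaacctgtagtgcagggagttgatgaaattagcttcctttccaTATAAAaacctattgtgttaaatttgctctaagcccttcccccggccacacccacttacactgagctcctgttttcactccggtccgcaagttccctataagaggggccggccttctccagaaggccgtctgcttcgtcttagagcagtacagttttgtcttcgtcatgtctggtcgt
H2aw, chr11:58954435-58954734, plus strand: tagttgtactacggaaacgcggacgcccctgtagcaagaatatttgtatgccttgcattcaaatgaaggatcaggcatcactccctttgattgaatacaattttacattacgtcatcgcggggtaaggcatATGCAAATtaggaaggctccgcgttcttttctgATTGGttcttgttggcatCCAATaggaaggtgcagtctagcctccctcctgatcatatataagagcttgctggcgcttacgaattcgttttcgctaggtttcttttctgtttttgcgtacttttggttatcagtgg
The H2bc12 window also holds the start of H2ac12, which is read in the opposite direction from a start 178 bases away.

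Sfpq itself, reported first because it checks the labels, stood at 168, 187 and 201 RPKM in the control libraries, 168, 149 and 151 in the heterozygous and 23.8, 25.7 and 25.4 in the homozygous. Its log2(RPKM + 0.5) was 2.86 lower in homozygous than in control cortex (SE 0.0717, limma adjusted p = 1.64e-09). Estimated depth was 169.5 to 204.5 M reads per library (M, 1000000 reads), so that 1 read on 500 bases was worth about 0.01 RPKM and counting error is small for nearly all members. Sex differed between the groups: Xist was above 1 RPKM in 2 of 3 control, 0 of 3 heterozygous and 1 of 3 homozygous libraries (control 1 and 2, homozygous 1). Of the 67 members 66 had a mean of at least 0.5 RPKM and were tested; H2ac1, a testis-type H2A, was at 0.24 to 0.50 RPKM and was not.

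Values of single members are not independent of one another. Over the coding sequence, the share of 50-base words found in no other gene had a median of 7.70% in H2A, 18.4% in H2B, 15.3% in H3, 29.7% in H4 and 89.1% in H1 genes. A word counted as shared if a transcript of any other gene name held it on either strand, so the holder need not be a histone gene. The sources used here do not give how reads that match several genes were assigned. H2bc23 and H4bc24 had identical values in all 9 libraries, and H2ac18 stood at 1.14 times H2ac19 in every library. In 11 of the 66 members, the log2 ratio to the nearest member of the same type had an SD under 0.01 over the 9 libraries. A count of members is therefore larger than the number of separate measurements behind it, and a value under a member's name may hold reads of its copies.

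Summed over all members, histone RNA was lower in homozygous cortex than in the other groups. The sum of RPKM was 37876, 34601 and 30938 in the control libraries, 29955, 32668 and 31808 in the heterozygous and 27384, 21591 and 21222 in the homozygous. All 3 homozygous sums lay below all 3 control and all 3 heterozygous sums, while the heterozygous and control sums overlapped. The homozygous mean was 67.9% and the heterozygous mean 91.3% of the control mean. As a share of all RPKM in a library, the members took 7.25% ± 0.817 in control, 6.81% ± 0.282 in heterozygous and 5.06% ± 0.669 in homozygous cortex (SD, n = 3 each). These sums are descriptions, with no test.

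By type, the homozygous mean of the summed RPKM was 67.7% of control for H1, 61.7% for H2A, 67.4% for H2B, 74.2% for H3 and 75.9% for H4. The heterozygous mean was 91.3% of control for H1, 77.1% for H2A, 97.8% for H2B, 98.0% for H3 and 103% for H4. The H2A sum was 10726, 10399 and 9031 RPKM in control, 7645, 8312 and 7295 in heterozygous and 7908, 5042 and 5650 in homozygous libraries. H2A was the type in which all 3 heterozygous sums lay below all 3 control sums without overlap, besides which the H1 sums of heterozygous libraries 1 and 3 (5681 and 5716) but not of library 2 (6350) lay below the lowest control sum (6074). The H2B sum was 9461, 8316 and 7916 RPKM in control, 8041, 8726 and 8350 in heterozygous and 6516, 5700 and 5090 in homozygous libraries, so that heterozygous libraries lay inside the control range and homozygous ones below it.

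In homozygous against control cortex, 55 of the 66 tested members were lower and 0 were higher by limma at an adjusted p below 0.05, where 19.9% of all 12129 genes tested were called lower and 14.2% higher. At an unadjusted p below 0.05, 60 members were lower and 0 higher, and 24.2% of all genes tested were lower. The median log2 change over the members was -0.54, against -0.01 over all genes tested. The called members were 2 of 6 H1 genes (median of the type -0.38), 16 of 17 H2A genes (-0.78), 17 of 18 H2B genes (-0.58), 11 of 12 H3 genes (-0.43) and 9 of 13 H4 genes (-0.37). In 46 members all 3 homozygous libraries lay below all 3 control libraries, which held for 25.6% of all genes tested: 2 H1, 16 H2A, 17 H2B, 5 H3 and 6 H4 genes. The count of called H3 genes was 4 without control library 1 or homozygous library 3, 5 without homozygous library 2 and 6 without control library 2, and that of H4 genes was 4 without homozygous library 3. The count of H1 genes was 4 without homozygous library 1.

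**Figure D1:**
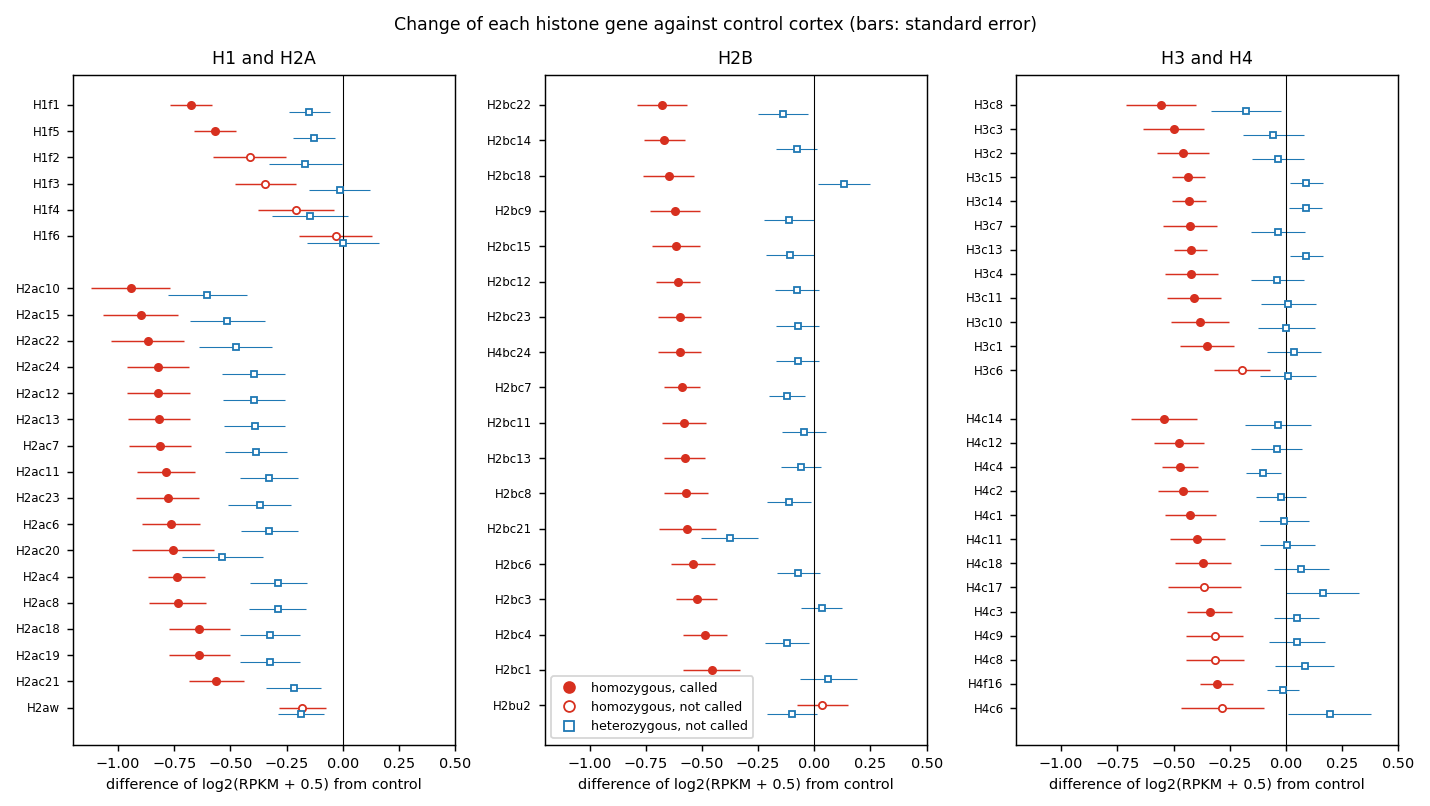
Difference of log2(RPKM + 0.5) from control for each of the 66 tested members, by histone type and ordered by the homozygous change; circles are homozygous minus control (filled where the adjusted p is below 0.05), squares heterozygous minus control, bars the standard error. The homozygous changes run from -0.94 for H2ac10 to 0.04 for H2bu2, and the heterozygous squares of H2A lie left of 0 while those of H3 and H4 scatter around 0.

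The linker histones, which bind the DNA between nucleosomes, split into genes that fell and genes that did not pass the test. H1f1, the most abundant member of all, stood at 3248, 3166 and 2844 RPKM in control, 2709, 3007 and 2638 in heterozygous and 2186, 1896 and 1736 in homozygous libraries. The homozygous libraries were all below the others, and the log2 change from control was -0.67 (SE 0.0929, limma adjusted p = 0.000221). H1f5 fell by 0.57 on the same scale (SE 0.0938, limma adjusted p = 0.000798), from 2449, 2282 and 2260 RPKM in control to 1846, 1495 and 1408 in homozygous libraries, again with no overlap. All coding 50-base words of H1f1 and H1f5 are their own, by exact match to annotated transcripts. Matches of shorter or inexact reads were not examined.

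The somatic H1 genes of lower level spread more widely between homozygous libraries. H1f4 was at 288, 276 and 251 RPKM in control libraries and at 293, 165 and 267 in homozygous libraries, so that homozygous library 1 was above every control library and library 2 far below. Its log2 change was -0.21 (SE 0.169, limma adjusted p = 0.384). H1f2 was at 377, 344 and 296 RPKM in control and 319, 185 and 274 in homozygous libraries, with a log2 change of -0.41 (SE 0.163, limma adjusted p = 0.0728). For H1f2 only homozygous library 1 lay within the control range, whereas for H1f4 homozygous library 3 was also above control library 3. H1f3 was at 496, 444 and 422 RPKM in control and 457, 288 and 345 in homozygous libraries, a log2 change of -0.34 (SE 0.137, limma adjusted p = 0.0749). H1f6, the testis linker histone, was close to the filter at 0.40 to 0.91 RPKM over the 9 libraries and its log2 change was -0.03 (SE 0.162, limma adjusted p = 0.903).

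H2A genes, whose proteins pair with H2B, had the most negative median change of the 5 types. H2ac18, the most abundant by RPKM, stood at 1564, 1540 and 1306 RPKM in control, 1178, 1225 and 1113 in heterozygous and 1191, 761 and 921 in homozygous libraries. Every mutant library was below every control library, and homozygous library 1 was within the heterozygous range. The homozygous change was -0.64 (SE 0.134, limma adjusted p = 0.00361); H2ac19, with an identical coding sequence, gave the same change (limma adjusted p = 0.00357), and the homozygous mean of both was 65.2% of control.

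H2ac20, also on chromosome 3 and with 24.1% of its coding words its own, was at 948, 915 and 820 RPKM in control, 634, 656 and 561 in heterozygous and 772, 419 and 456 in homozygous libraries. Homozygous library 1 was above all heterozygous libraries, and the other homozygous libraries were below them. The homozygous change was -0.76 (SE 0.18, limma adjusted p = 0.00757). H2ac4, on chromosome 13, was at 634, 617 and 498 RPKM in control, 458, 505 and 463 in heterozygous and 431, 300 and 324 in homozygous libraries. Its homozygous change of -0.74 (SE 0.126, limma adjusted p = 0.000978) came with no overlap with control, although heterozygous library 2 lay above control library 3.

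The largest fall of any member was in H2ac10, which was at 369, 378 and 321 RPKM in control, 230, 270 and 206 in heterozygous and 259, 144 and 168 in homozygous libraries. Its homozygous mean was 53.4% of control, and the log2 change was -0.94 (SE 0.177, limma adjusted p = 0.00179). H2aw was the H2A gene that was not called: it stood at 482, 433 and 468 RPKM in control, 431, 410 and 375 in heterozygous and 483, 346 and 402 in homozygous libraries. Homozygous library 1 was as high as the highest control library, and the change was -0.18 (SE 0.104, limma adjusted p = 0.214). None of the coding 50-base words of H2aw is its own, although 68.5% of the words over its whole transcript are. Its coding sequence is 89.8% identical to that of the nearest H2A gene, H2ac13. Which genes hold these coding words was not examined, and they need not be histone copies. Its value too may hold some reads of other genes.

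Among H2B genes, H2bc18 was at 1695, 1440 and 1238 RPKM in control, 1614, 1724 and 1427 in heterozygous and 942, 1007 and 826 in homozygous libraries. The heterozygous libraries were as high as the controls, and all homozygous libraries were below both. The change from control was -0.65 (SE 0.115, limma adjusted p = 0.00127) and from heterozygous -0.78 (SE 0.115, limma adjusted p = 0.000385), the largest fall of any member in that comparison. H2bc3 fell from 1562, 1402 and 1342 RPKM in control to 1130, 1008 and 870 in homozygous libraries (log2 change -0.52, SE 0.0907, limma adjusted p = 0.00109).

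H2bc14 was at 1173, 1040 and 1034 RPKM in control and at 781, 682 and 590 in homozygous libraries, a log2 change of -0.67 (SE 0.0915, limma adjusted p = 0.000212). H2bc12 was at 635, 559 and 538 RPKM in control and at 440, 367 and 333 in homozygous libraries, a change of -0.61 (SE 0.0972, limma adjusted p = 0.000629). The homozygous libraries of H2bc3, H2bc14 and H2bc12 all lay below their controls, and their heterozygous means were 102%, 94.6% and 94.7% of control. H2bc22 had the largest H2B fall from control, -0.68 (SE 0.111, limma adjusted p = 0.000728), to 62.8% of the control mean.

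H2bu2 was the H2B gene not called. It was at 261, 206 and 212 RPKM in control, 195, 211 and 225 in heterozygous and 272, 203 and 222 in homozygous libraries. The 3 groups overlapped throughout, and the log2 change was 0.04 (SE 0.112, limma adjusted p = 0.839). H2bc21, with all coding words its own, was the least abundant tested H2B gene at 6.40, 6.42 and 8.01 RPKM in control, 4.36, 5.43 and 5.95 in heterozygous and 5.19, 4.41 and 3.99 in homozygous libraries. Both mutant groups lay below all control libraries, and the homozygous change was -0.57 (SE 0.125, limma adjusted p = 0.00504).

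H3 genes, which with H4 form the core tetramer of the nucleosome, had a less negative median change and varied more between control libraries. H3c3 was at 1143, 963 and 801 RPKM in control, 804, 932 and 1048 in heterozygous and 763, 692 and 591 in homozygous libraries. The homozygous libraries lay below the controls, with homozygous library 1 close to control library 3, and the change was -0.50 (SE 0.136, limma adjusted p = 0.0152). H3c2 was at 637, 556 and 455 RPKM in control and 445, 391 and 358 in homozygous libraries (log2 change -0.46, SE 0.116, limma adjusted p = 0.0107). H3c11 was at 436, 365 and 311 RPKM in control and 321, 262 and 252 in homozygous libraries, which overlapped, with a change of -0.41 (SE 0.12, limma adjusted p = 0.0222).

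H3c8 had the largest H3 change, -0.56 (SE 0.156, limma adjusted p = 0.0173), although its homozygous library 1 at 233 RPKM was above control library 3 at 221. H3c6 was the H3 gene not called: it was at 424, 369 and 297 RPKM in control, 320, 358 and 414 in heterozygous and 344, 300 and 298 in homozygous libraries. All homozygous libraries lay within the control range, and the change was -0.20 (SE 0.125, limma adjusted p = 0.258). H3c15, from the chromosome 3 cluster, had a tighter spread than these, at 123, 116 and 105 RPKM in control, 116, 127 and 123 in heterozygous and 92.3, 84.4 and 77.9 in homozygous libraries. Its change from control was -0.43 (SE 0.0738, limma adjusted p = 0.000949); H3c15 was chosen after its values were seen.

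Of the H4 genes, H4c4 was at 969, 902 and 867 RPKM in control, 838, 882 and 832 in heterozygous and 751, 612 and 619 in homozygous libraries. All homozygous libraries were below all others, and the change was -0.47 (SE 0.0792, limma adjusted p = 0.000901). H4c17, the most abundant H4 gene, was at 1085, 964 and 779 RPKM in control, 879, 946 and 1381 in heterozygous and 808, 716 and 662 in homozygous libraries. Heterozygous library 3 was far above the rest, homozygous library 1 overlapped the controls, and the change from control was -0.36 (SE 0.162, limma adjusted p = 0.111). H4c18, whose coding sequence is identical to that of H4c17, passed the test with a change of -0.37 (SE 0.123, limma adjusted p = 0.0388), and this call was lost in several of the alternative fits.

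H4c3 was at 469, 394 and 347 RPKM in control and 339, 311 and 299 in homozygous libraries, just without overlap, and its change was -0.34 (SE 0.1, limma adjusted p = 0.0224). H4c14, with 93.9% of its coding words its own, had the largest H4 change, -0.54 (SE 0.146, limma adjusted p = 0.0143), from 174, 134 and 110 RPKM in control to 112, 90.8 and 81.3 in homozygous libraries, where homozygous library 1 lay just above control library 3. H4f16, the lone member on chromosome 6, was at 135, 130 and 119 RPKM in control and 113, 93.7 and 103 in homozygous libraries (log2 change -0.31, SE 0.072, limma adjusted p = 0.00671). Its homozygous libraries were all below its controls; H4f16 was named for its place on chromosome 6. H4c6 had the smallest H4 change, -0.28 (SE 0.184, limma adjusted p = 0.271), with values of 367, 303 and 277 RPKM in control, 297, 314 and 495 in heterozygous and 259, 306 and 216 in homozygous libraries. H4c8 (-0.32, limma adjusted p = 0.0869) and H4c9 (-0.32, limma adjusted p = 0.0755) were not called either.

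**Figure D2:**
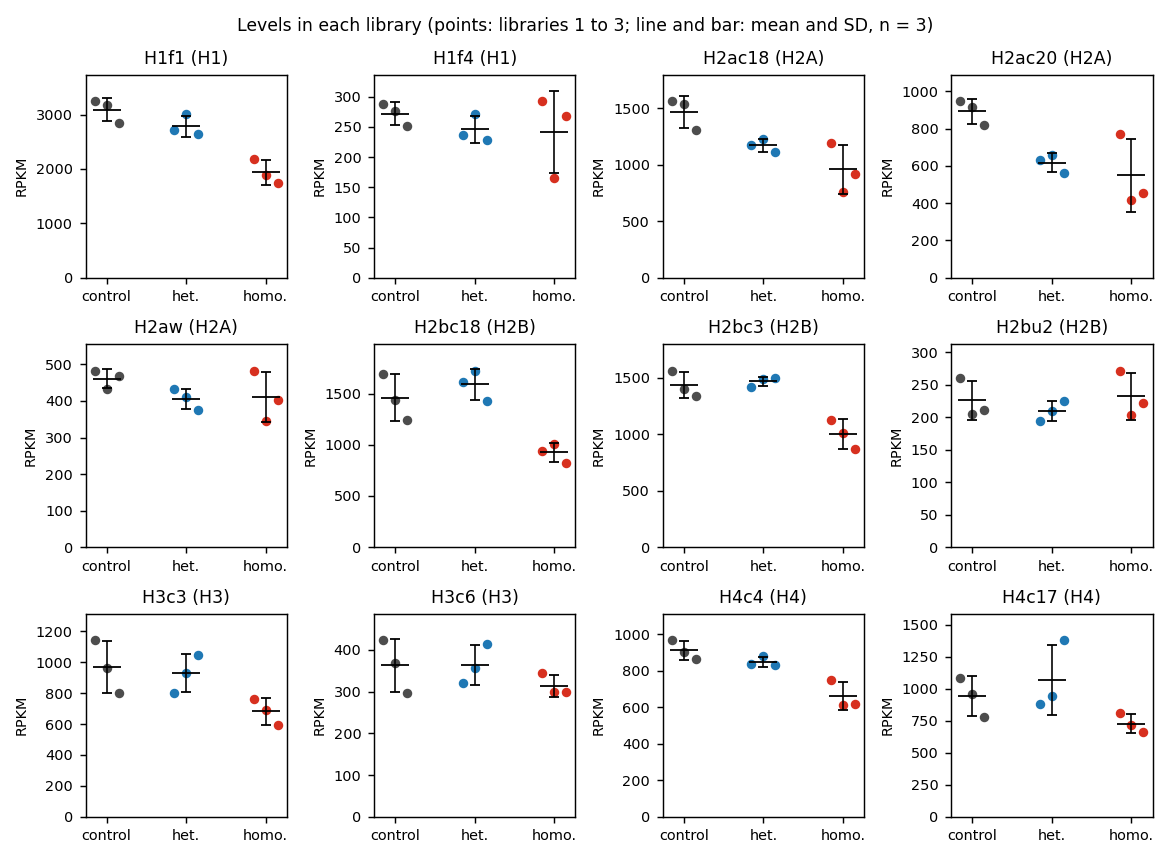
RPKM of 12 members in each library, with a linear axis from 0; points are libraries 1 to 3 from left to right, the line and bar the mean and SD of 3 libraries. Homozygous libraries lie below control for H1f1, H2ac18, H2ac20, H2bc18, H2bc3, H3c3 and H4c4 and overlap control for H1f4, H2aw, H2bu2, H3c6 and H4c17.

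By gene cluster, 44 of the 53 tested members of the Hist1 cluster on chromosome 13 were called lower in homozygous cortex, with a median of -0.54. Over all genes tested, 19.9% were called lower. All 10 tested members of the Hist2 cluster on chromosome 3 were called lower, with a median of -0.56. They are not 10 separate measurements. H2ac18 kept a nearly constant ratio to H2ac19 over the libraries, and H3c14 did so to H3c13 and H3c15. Neither of the 2 members of the Hist3 cluster on chromosome 11, H2aw and H2bu2, was called, although both carry the stem-loop printed above and the CCAAT motif. The single Hist4 gene on chromosome 6, H4f16, was called lower. Whether the chromosome 11 genes differ from the others in their change was not tested.

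Lower levels were also found in members with a coding sequence of their own. Of the 6 tested members with at least 90% of their coding 50-base words found in no other gene (H1f1, H1f5, H1f6, H2bc21, H4c14 and H4f16), 5 were called lower and the median change was -0.55. Of the 60 others 50 were called lower, with a median of -0.53, and of the 23 members with under 10% of their own words 21 were called lower, with a median of -0.60. Among all genes tested the share called lower was 19.9%.

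**Figure D3:**
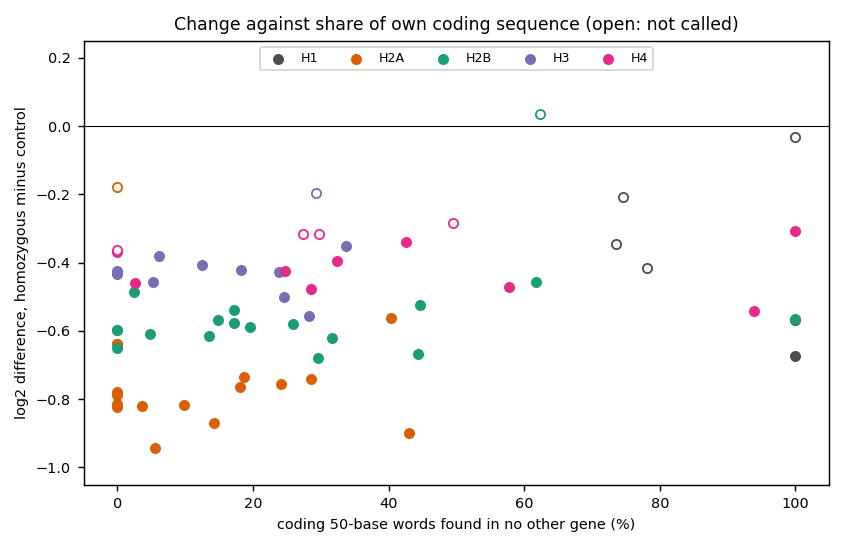
Log2 change in homozygous against control cortex for each tested member against the share of its coding 50-base words that no other gene holds, coloured by histone type; open circles were not called. Called members are found from 0% to 100%, and the tested H2A genes all lie under 50% on the horizontal axis.

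In heterozygous against control cortex no member was called (0 of 66), and limma called 0.0% of all 12129 genes tested. The adjusted p of the members ran from 0.663 to 0.999. At an unadjusted p below 0.05, 16 members were lower, 15 of them H2A genes and the other H2bc21, and 4.30% of all genes tested were lower at that level. In 17 members all 3 heterozygous libraries lay below all 3 control libraries, against 7.49% of all genes tested, and 15 of the 17 were H2A genes. The medians were -0.37 for H2A, -0.14 for H1, -0.08 for H2B, 0.01 for H3 and 0.01 for H4. In this fit, which has no term for sex, all 17 tested H2A genes were below 0, from -0.60 in H2ac10 to -0.19 in H2aw.

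The H2A values in heterozygous libraries can be read in H2ac10, H2ac20 and H2ac18, whose levels are given above with no overlap between heterozygous and control. Their log2 differences from control were -0.60 (SE 0.177, limma adjusted p = 0.663), -0.54 (SE 0.18, limma adjusted p = 0.73) and -0.32 (SE 0.134, limma adjusted p = 0.82). In H2ac10 the highest heterozygous library, at 270 RPKM, lay below the lowest control library, at 321 RPKM. Because most H2A genes share coding words with others, these are not separate measurements, and none passed the adjusted threshold. The heterozygous libraries all had low Xist, while 2 of the 3 control libraries had high Xist. With sex as a covariate, an alternative chosen after seeing the data, the median heterozygous change of the 17 H2A genes was -0.09 in place of -0.37. The H2A changes then ran from -0.28 in H2ac10 to 0.03 in H2ac21, 16 of the 17 were below 0 and 0 had an unadjusted p below 0.05. The medians of the other types moved in the same fit to 0.04 for H1, 0.08 for H2B, 0.21 for H3 and 0.22 for H4. That fit also called 0 members in heterozygous cortex. The size of the H2A difference thus changed with this term in the fit, and H2A had the lowest median of the types in both fits. The term sets control libraries 1 and 2 and homozygous library 1 against the rest. It therefore also takes up any other difference between those libraries, and the change cannot be credited to sex alone. Of the controls only library 3 had low Xist, and it was the lowest control in 61 of the 66 members. Genotype and sex therefore cannot be fully told apart in heterozygous against control cortex.

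A closer look at H2A and H2B was possible in the head-to-head pairs, in which an H2A and an H2B gene are read in opposite directions from starts 164 to 281 bases apart. Starts came from the RefSeq promoter windows and, for H2bc21 and H2bc4, which had none, from GENCODE M21 (both GRCm38). There were 12 such pairs, 11 on chromosome 13 and 1, H2ac20 with H2bc21, on chromosome 3, and 11 had both genes tested. In homozygous cortex the H2A partners changed by -0.90 to -0.73 (median -0.82) and the H2B partners by -0.68 to -0.49 (median -0.59). In heterozygous cortex, in the fit without sex, the H2A partners changed by -0.54 to -0.29 (median -0.39) and the H2B partners by -0.38 to -0.05 (median -0.11). The lowest H2B partner in heterozygous cortex was H2bc21, at -0.38 beside -0.54 in H2ac20. The H2A partner was the lower in 11 of 11 pairs in each comparison. In homozygous cortex any pairing of these genes would give that count, because every H2A partner lay below every H2B partner. In heterozygous cortex every H2A partner lay below every H2B partner except H2bc21. The counts therefore restate the difference between the types and show nothing particular to the pairs. Both comparisons use the same control libraries, the partners share words with other pairs, and the difference between partners was not tested.

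**Figure D4:**
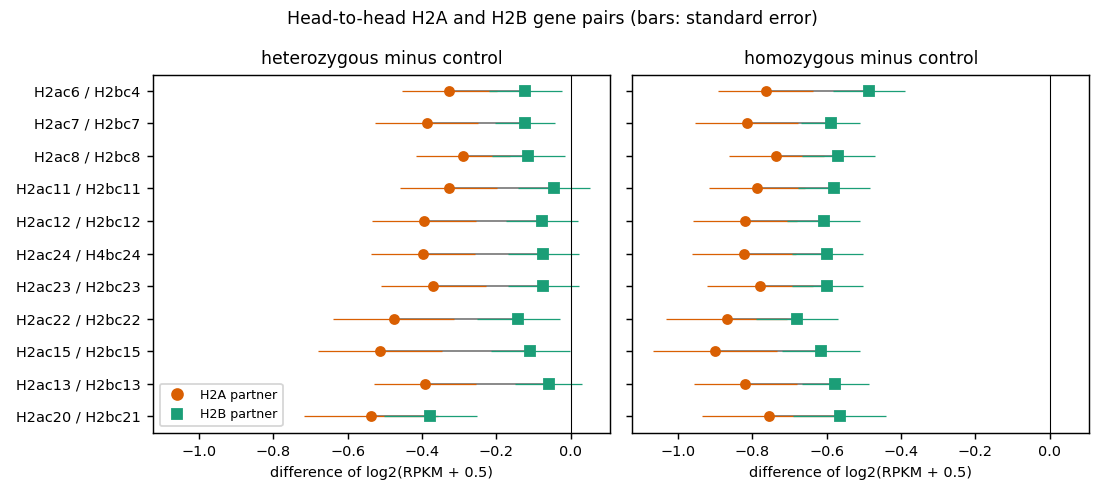
Log2 differences from control of the H2A partner (circles) and H2B partner (squares) of 11 head-to-head pairs, heterozygous on the left and homozygous on the right; bars are standard errors. In each panel every circle lies left of its square, and in the heterozygous panel the squares lie between -0.38 (H2bc21) and -0.05.

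In homozygous against heterozygous cortex 50 members were lower and 0 higher by limma, where 18.2% of all genes tested were called lower and 14.4% higher. These were 2 of 6 H1, 10 of 17 H2A, 16 of 18 H2B, 10 of 12 H3 and 12 of 13 H4 genes, with medians of -0.29, -0.41, -0.52, -0.41 and -0.42. In 44 members all homozygous libraries lay below all heterozygous ones, against 24.2% of all genes tested. These were 2 of 6 H1, 4 of 17 H2A, 16 of 18 H2B, 10 of 12 H3 and 12 of 13 H4 genes, so the H2A share was near that of all genes. H4c17, not called against control, was lower here by 0.53 (limma adjusted p = 0.0283), with heterozygous library 3 as its highest value. H2ac20 was not called (-0.22, limma adjusted p = 0.391), and H2ac10 was not (-0.34, limma adjusted p = 0.168). The count over all members was 28 and 29 without heterozygous library 2 or 3 and 29 and 25 without homozygous library 2 or 3; it was 24 under median centring and 27 with no filter on low values. The count of H2A genes was 0 without heterozygous library 2, homozygous library 2 or homozygous library 3, and in both of those settings. It was 5 without heterozygous library 1 or 3, 6 without control library 2 and 16 without homozygous library 1. The count of H3 genes was 3 without heterozygous library 2, heterozygous library 3 or homozygous library 3 and 4 without homozygous library 2. The count of H4 genes was 3 without heterozygous library 3, 7 without homozygous library 2 and 5 without homozygous library 3.

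The libraries of a group kept nearly the same order for member after member. Control library 1 was the highest control in 63 of the 66 members and control library 3 the lowest in 61. Homozygous library 1 was the highest homozygous library in 63, and heterozygous library 1 the lowest heterozygous library in 49. The median over members of the log2 difference from the control mean was 0.13, 0.02 and -0.16 in the control, -0.17, -0.04 and -0.05 in the heterozygous and -0.30, -0.61 and -0.69 in the homozygous libraries. Xist was high in control libraries 1 and 2 and homozygous library 1, which were also the higher histone libraries of their groups. In every other gene list counted below, control library 1 had instead the lowest control median. The medians in control libraries 1 to 3 were -0.20, 0.02 and 0.18 for endothelial and -0.37, 0.16 and 0.18 for meningeal markers. Sex and any other difference between these libraries cannot be told apart here. With sex as a covariate limma called 54 members lower against control and 60 against heterozygous cortex. In that fit 2576 and 2021 of all 12129 genes tested were called lower. The median change of the members from control was then -0.43 in place of -0.54. From heterozygous cortex it was -0.54 in place of -0.43. By type, the medians against control were -0.26 for H1, -0.64 for H2A, -0.52 for H2B, -0.33 for H3 and -0.27 for H4.

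**Figure D5:**
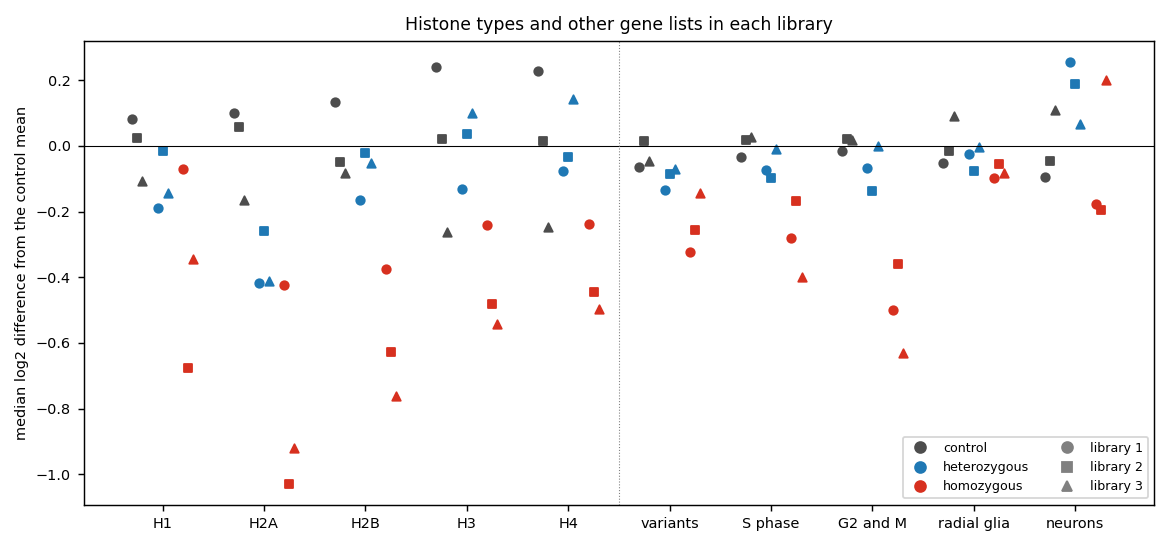
Median over the tested genes of each histone type, and of 5 other gene lists, of the log2(RPKM + 0.5) difference from the control mean, 1 point per library; colour is the genotype and the marker shape the library number. Within the homozygous group library 1 is the highest for each histone type, whereas for the G2 and M phase genes it lies between libraries 2 and 3.

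Other genes of the histone pathway and of the cell cycle were counted in lists, to be read beside the 19.9% of all genes tested that were lower and the 14.2% that were higher. Of the 11 histone variants that are also made outside S phase, 6 were lower and 0 higher in homozygous cortex (median -0.27). H2ax, the variant phosphorylated at DNA breaks, which can also be made with a histone stem-loop, was at 146, 152 and 131 RPKM in control, 117, 122 and 99.2 in heterozygous and 96.0, 71.2 and 76.7 in homozygous libraries. Its levels stepped down from group to group without overlap, and the homozygous change was -0.82 (SE 0.11, limma adjusted p = 0.000189); the heterozygous change was -0.34 (limma adjusted p = 0.728), and -0.15 with sex as a covariate. Cenpa, the centromeric H3, changed by -0.78 (limma adjusted p = 1.46e-05), H2az1 by -0.43 (limma adjusted p = 0.000629) and H2az2 by -0.27 (limma adjusted p = 0.0013). H3f3b, which encodes the replacement histone H3.3, was at 238, 225 and 229 RPKM in control and 240, 229 and 271 in homozygous libraries, a change of 0.09 (SE 0.0616, limma adjusted p = 0.293).

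Of 23 tested genes for histone gene transcription, mRNA processing and decay, 5 were lower and 1 higher (median -0.09), a share of lower genes near that of all genes tested. Slbp was at 83.5, 88.5 and 83.0 RPKM in control, 81.5, 84.8 and 89.2 in heterozygous and 74.9, 79.7 and 77.8 in homozygous libraries. The homozygous libraries were all below the controls by a small margin, and the change was -0.13 (SE 0.0505, limma adjusted p = 0.0638). Npat, the coactivator of histone gene transcription, was at 3.81, 4.26 and 4.68 RPKM in control and 4.17, 4.5 and 3.81 in homozygous libraries (log2 change -0.03, SE 0.0914, limma adjusted p = 0.849). The lowest adjusted p in the list were those of Lsm1, a decay factor (-0.26, limma adjusted p = 0.00212), and of the S phase cyclin Ccne2 and its partner Cdk2 (-0.40 and -0.28, limma adjusted p = 0.00315 and 0.0046), followed by Ccne1 (-0.27, limma adjusted p = 0.00832). Of 18 histone chaperones 2 were lower, Hira (-0.30, limma adjusted p = 0.0057) and Chaf1b (-0.29, limma adjusted p = 0.0159), and Npm1 was higher (0.16, limma adjusted p = 0.0436), with a median of -0.01.

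Of 30 genes used in S phase for DNA synthesis, 22 fell and 0 rose in homozygous cortex (median -0.27). The count was 13 without control library 2 and 13 without homozygous library 3. The lowest adjusted p were those of Tk1, thymidine kinase, which was at 25.1, 25.1 and 25.7 RPKM in control and 13.4, 13.8 and 11.4 in homozygous libraries (log2 change -0.95, SE 0.0684, limma adjusted p = 1.64e-06), of Pcna, the polymerase clamp (-0.51, limma adjusted p = 6.34e-05), of Pola1 (-0.49, limma adjusted p = 8.67e-05) and of Cdc45 (-0.51, limma adjusted p = 0.000111). Of 15 G2 and M phase genes 11 fell and 0 rose (median -0.48); Cdk1 changed by -0.62, Aurkb by -0.61, Aurka by -0.62 and Birc5 by -0.46 (limma adjusted p = 2.39e-05, 3.5e-05, 4.7e-05 and 7.3e-05). By library, the S phase median was -0.28, -0.17 and -0.40 and the G2 and M median -0.50, -0.36 and -0.63 in homozygous libraries 1 to 3, while the median over histone members was -0.30, -0.61 and -0.69. Homozygous library 2 was thus the highest of its group for both cell cycle lists, and homozygous library 1 for the histone genes. In heterozygous cortex limma called 0 genes of each of these lists; at an unadjusted p below 0.05, 3 histone variants, 3 S phase genes, 3 G2 and M genes and 0 genes of the processing and chaperone lists were lower.

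Cell type markers were counted too, against the 19.9% of all genes tested that were lower and the 14.2% that were higher, and their part in the fall of histone RNA was not tested. Of 10 radial glia markers 3 were lower and 2 higher in homozygous cortex (median -0.04, summed level 1966 to 2139 RPKM in control and 1858 to 1943 in homozygous libraries). Of 8 intermediate progenitor markers 3 were lower and 0 higher (median -0.30, sum 164 to 202 RPKM in control and 118 to 123 in homozygous). Of 11 neuronal markers 3 were lower and 2 higher (median -0.09, sum 654 to 756 and 539 to 663 RPKM). Of 10 microglia markers 5 were higher and 0 lower (median 0.34), at a summed level of 15.8 to 17.7 RPKM in control and 20.8 to 28.4 in homozygous libraries. Of 8 endothelial and 7 meningeal markers 0 were called by limma and 0 had an unadjusted p below 0.05, and of 7 tested erythroid markers 2 were lower, with a summed level of 1395 to 1923 RPKM in control and 1133 to 1530 in homozygous libraries. In heterozygous libraries the radial glia markers summed to 1906 to 2169 RPKM and the neuronal markers to 672 to 766 RPKM, so both labelled cell types were present by their markers in every group.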

How the data were processed

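The authors deposited 1 table per library with the RPKM of 30978 RefSeq transcripts, per the file headers. TopHat 1.4.1, CASAVA 1.8.2 and genome build mm9 are named in the submitters' processing notes; the sources used here do not give the RPKM program, its use of strand or its handling of multiply mapping reads. Reads of near-identical histone copies may therefore be split or shared.

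Each of 23201 genes was represented by 1 transcript. All 9 libraries were fitted with limma 3.58.1 in R 4.3.3 on log2(RPKM + 0.5) by genotype, with a mean-variance trend, over the 12129 genes whose mean reached 0.5 RPKM; fold changes are on that scale, which understates low genes. Benjamini-Hochberg adjusted p below 0.05 over all genes was called. On simulated data (10 runs of 12129 genes, 200 changed), 76.6% of changes of 0.5 and 97.2% of changes of 1 (log2) were found, with 4.48% of calls false. The simulated noise was independent between genes and libraries, so these rates do not carry over to members that move together. Depth was estimated from the spacing of low values. An exact permutation test of 3 against 3 cannot go below 0.1, so none is quoted for members.

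Members, lists and tests were chosen with earlier results of these data known. Named were Sfpq, the 4 highest members of each type, its largest and smallest change, every tested member not called against control, and in each pathway list up to 4 genes with the smallest adjusted p, with Slbp, Npat, Pcna, H2az1 and H3f3b; exceptions are marked, and H2ac20, H2ac10, H2bc21 and H2ax are also used where heterozygous values are given. Alternatives covered pseudocount, filter, scaling, transcripts, groups in the fit, trend, replicate block, each library left out and, added after seeing the data, sex.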

Additional observations from a re-analysis of the deposited data

How the results depend on the processing

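The 55 members called lower in homozygous against control cortex became 43 to 59 when single libraries were left out (H1 2 to 4, H2A 16 to 17, H2B 16 to 17, H3 4 to 12, H4 4 to 12) and 43 with no filter. H3 gave 4 with no filter and 6 with median centring, and H4 gave 5 in both. Against heterozygous cortex the count of 50 ranged over 25 to 58 without single libraries (H1 2 to 3, H2A 0 to 16, H2B 15 to 16, H3 3 to 11, H4 3 to 12). It was 27 with no filter (H2A 0, H3 3, H4 6), 24 with median centring (H2A 0, H3 3, H4 4) and, for H2A, 6 with no trend; with sex as a covariate H1 gave 4 and H2A 16. Leaving out single libraries gave 5 to 6 histone variants, 4 to 5 processing genes, 1 to 4 chaperones, 13 to 21 S phase genes and 11 to 14 G2 and M genes called lower; chaperones gave 1 with median centring and 4 with sex as a covariate. Counts of members called higher, and of members called in heterozygous cortex, were 0 in every fit. Median centring and quantile normalization moved the split of all genes called in homozygous against control cortex from 1723 higher and 2411 lower to 2843 and 1984, and to 2558 and 2149. The sign turned for 3 changes that were not called: H1f6 was 0.0198 with quantile normalization and 0.0311 with median centring, Npat 0.0354 and 0.0357, and H2ac21 in heterozygous cortex went from -0.22 to 0.0252 with sex as a covariate. Without single libraries H1f4 ranged from -0.366 to 0.0457, H1f6 from -0.144 to 0.0690, H2bu2 from -0.0835 to 0.142 and Npat from -0.0964 to 0.0375. The median over H1 members in place of the sum gave -0.36 in homozygous against control cortex. The causes of these shifts were not tested. With the replicate number as a block, 54 members were called lower against control, 48 against heterozygous cortex and 0 in heterozygous cortex. Libraries with the same number correlated at 0.07 to 0.40 (control and homozygous), -0.05 to 0.01 (control and heterozygous) and -0.04 to 0.10 (heterozygous and homozygous). Control and homozygous libraries with different numbers correlated at -0.44 to 0.10, so those with the same number were somewhat more alike by this measure. The correlations are of deviations from group means, so values for the same and for different numbers depend on one another. Xist was high in both libraries 1 (0.40) and low in both libraries 3 (0.32), and it differed between libraries 2 (0.07). Whether the numbers pair the libraries was not tested, and the main fit did not pair them. Depth limits only H1f6 and H2ac1; for the rest, sequence shared between copies limits what a single value can show.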
